A study of Homo sapiens with 12 samples.

Results

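The regions described here are the ac4C peaks that the authors' deposited differential peak table placed in the class exon, that is, in an exon but outside its coding sequence, UTR and codon classes. They were taken as every row of that table with this class, and they numbered 365 of 2364 peaks, in 314 genes. By the table's own gene biotypes, 99 of the 365 peaks lay in 81 noncoding genes and 266 lay in 233 protein-coding genes, and the text keeps these kinds apart. The cells were DLD1, an established human colorectal cancer line at passage 5, carrying either a control short hairpin RNA (shNC) or one labelled as directed against NAT10 (shNAT10). Each hairpin had 3 input libraries and 3 libraries immunoprecipitated with an antibody against ac4C, 12 in all. RNA of 100 µg was fragmented to 100 to 200 nt and read as pairs of 150 bp. The sources used here did not give the hairpin sequence, its promoter or whether a line was 1 clone. Nothing said that replicates were separate cultures, so p-values measure only the spread between these samples, which may be technical.

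N4-acetylcytidine (ac4C) is a cytidine with an acetyl group on its exocyclic nitrogen, written on RNA by the acetyltransferase NAT10. It is a classical modification of 18S ribosomal RNA and of some transfer RNAs, where the adaptor THUMPD1 guides the enzyme, and it has also been mapped on messenger RNA by antibody pulldown. An exon outside the coding and UTR classes can be one of a long noncoding RNA, a small RNA or a pseudogene. In a protein-coding gene it can belong to a transcript that the annotation gives no reading frame. The sources used here gave only the class, so whether bases of a peak are coding in another transcript was not tested. On the same strand, 3 of the other-exon peaks overlapped peaks of another class.

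The authors listed for each peak the places of a motif of 4 consecutive triplets that each begin with C. Sites are shown because this motif is the sequence feature by which the table describes its peaks, and only where a RefSeq window around a gene start covers the site. The capitals mark the 12 bases of the listed motif, and each run is given 5′ to 3′ on the strand of the peak's gene, from RefSeq on GRCh38.p14. LBX2-AS1 is an antisense RNA at the homeobox gene LBX2, AC245052.4 is an antisense RNA at the splicing factor gene PRPF31, RCC1 encodes the nucleotide exchange factor of Ran, NUDT6 a Nudix hydrolase and CSNK2B the regulatory subunit of casein kinase 2. The choice was made after the data were seen.
LBX2-AS1, chr2:74503278-74503307, plus strand: gcagctggcCAGCTTCAGCCAccttgggag
LBX2-AS1, chr2:74503307-74503336, plus strand: gacgcagtgCAGCTGCCGCTGctgacagac
LBX2-AS1, chr2:74503371-74503400, plus strand: cggcctgagCGCCTTCCGCGCtgctcggcc
AC245052.4, chr19:54122626-54122655, minus strand: gagagtgagCCCCGCCTGCCCcttcacgcc
RCC1, chr1:28506063-28506092, plus strand: cagtggtcgCTTCTTCTCCTTggtaagtgt
NUDT6, chr4:122922549-122922578, minus strand: gtggagatgCGGCAGCCACTGagctggggc
CSNK2B, chr6:31669861-31669890, plus strand: atggcctacCAGCTGCAGCTCcaagccgcc
All 11 listed sites of other-exon peaks that such windows covered held the motif on the strand of the gene, as did 38 of the 42 covered sites of all classes. The motif is short in information: 74.9% of 35116 RefSeq windows of 300 bases held it on the strand of the gene, at 1.51% of positions. The peak of LBX2-AS1 had a deposited fold of 9.43 and a log2 change of -5.13, that of AC245052.4 a fold of 339 and a change of 8.39, and that of RCC1 a fold of 10.2 and a change of 8.73. Peaks with a listed site thus occurred with either sign.

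The libraries set limits on what follows. The deposited table gave 1 fold, 1 log2 change and 1 FDR per peak and no value per library, so the spread between immunoprecipitated replicates was not analysed here. The fold is the authors' enrichment of a peak, and the log2 change is that of their differential test, with the hairpin in its numerator not stated, so that a sign is given here without a direction. All listed peaks had already passed an FDR of about 0.05 (largest 0.0501). Levels come from the inputs as FPKM, fragments per kilobase of gene scaled to library size, with estimated denominators of 3285000 to 3427000 fragments for shNC and 1198000 to 1498000 for the libraries labelled shNAT10. NAT10 (ENSG00000135372) had an input level of 1.24, 3.95 and 2.89 FPKM in shNC against 0, 28.1 and 31.4 in the libraries labelled shNAT10. Of these, 1 lay below all shNC libraries and 2 lay above them, the log2 difference was 1.48 (SE 1.86, limma adjusted p = 0.754, exact two-sided permutation p = 0.4, smallest possible 0.1), and directions for the inputs are those of the labels. Of the epithelial markers, 8 of 8 were measured above the filter, with summed levels of 5052 to 5385 FPKM in shNC and 8125 to 8583 in the libraries labelled shNAT10. No leukocyte or endothelial marker passed the filter, and 3 of 8 fibroblast and muscle markers did, with summed levels of 0 to 3.81 FPKM in shNC and 9.62 to 76.9 in the libraries labelled shNAT10. Such sums are weighted to abundant genes. The median log2 difference was 0.10 over the 8 epithelial markers, of which 0 passed limma's test and 1 had an unadjusted p under 0.05. It was 1.27 over the 3 fibroblast and muscle markers tested, of which 0 passed. The part of these differences between summed levels in the results below was not tested.

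The other-exon peaks leaned to negative changes, as the whole table did. In the authors' deposited table, 226 of the 365 changes were negative (61.9%) and 139 were positive, against 61.7% negative over all 2364 peaks. The share was 64.7% in protein-coding genes (172 of 266) and 54.5% in noncoding genes (54 of 99). MALAT1 alone held 13 positive peaks, and without it the noncoding share was 62.8% (54 of 86). For the coding-sequence peaks the share was 63.1%, for 3′ UTR peaks 58.8% and for 5′ UTR peaks 55.7%. The shares are set side by side as a description, because peaks of a gene are not independent and no test between classes was made.

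Changes were large in both directions, and the positive ones were larger, as over the whole table. The median deposited log2 change was -4.32 among negative peaks and 6.19 among positive ones, against -4.43 and 6 over all 2364 peaks. The median fold was 7.17 for negative peaks and 15.7 for positive peaks, against 8.15 and 17.2 over all peaks. Of the 46 other-exon peaks with a fold of at least 100, 31 were positive and 15 negative, a share of 67.4% positive against 64.3% over the 263 such peaks of all classes. By kind of gene the median fold was 9.43 in noncoding genes and 8.67 in protein-coding genes, and 15.8 in the 3′ UTR. Fold and the absolute change were correlated across the 365 peaks (Spearman's rho 0.41, a description across peaks that share libraries).

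**Figure D1:**
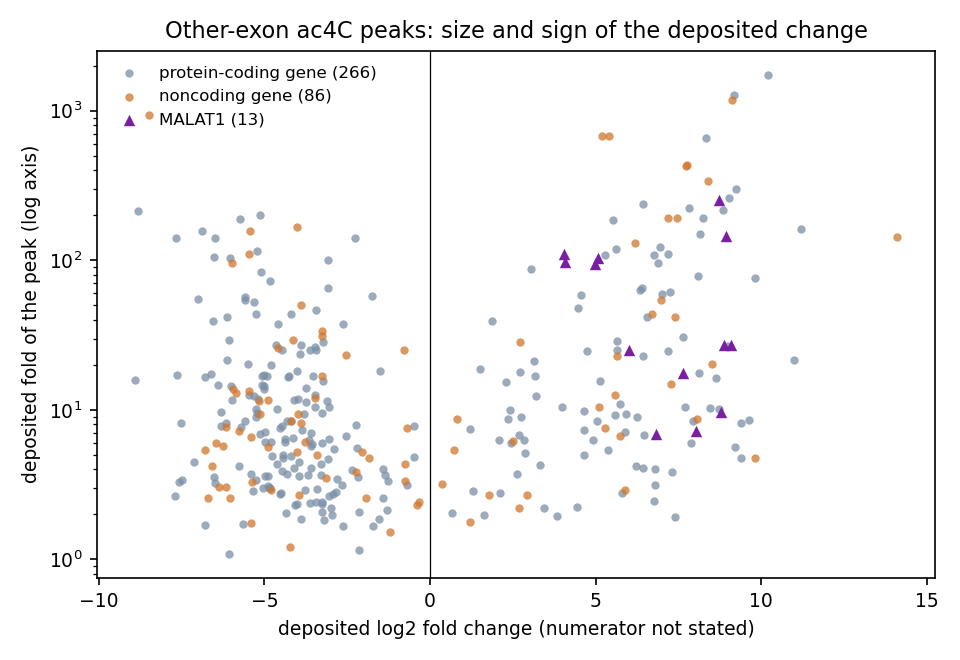
Each point is 1 other-exon peak, with the deposited log2 change on the horizontal axis and the deposited fold on a logarithmic vertical axis; grey points are peaks of protein-coding genes, orange points of noncoding genes and purple triangles of MALAT1. The highest fold, 1740, lies on the positive side, and a fold of 943 lies on the negative side. Of the 46 peaks of fold 100 or more, 31 are positive (67.4%, against 64.3% over all classes). Few points (13) have an absolute log2 change under 1.

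Peaks of noncoding genes were counted by annotation, as a description with no test. Antisense RNAs held 44 peaks in 41 genes, of which 30 were negative (68.2%) and 14 positive, near the 61.9% of all other-exon peaks and the 62.8% of noncoding ones without MALAT1. Peaks of long intergenic RNAs numbered 18 in 5 genes, with 2 negative and 16 positive, 13 of them in MALAT1. Genes annotated as processed transcripts held 12 peaks, 9 negative and 3 positive. The 9 peaks annotated as misc_RNA, of 7SL, 7SK and Y RNA genes and copies of them, were 6 negative and 3 positive, all small, between -1.84 and 1.79. Antisense peaks in this table, by contrast, ranged from -8.48 to 14.1 with none under 1 in size.

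**Figure D2:**
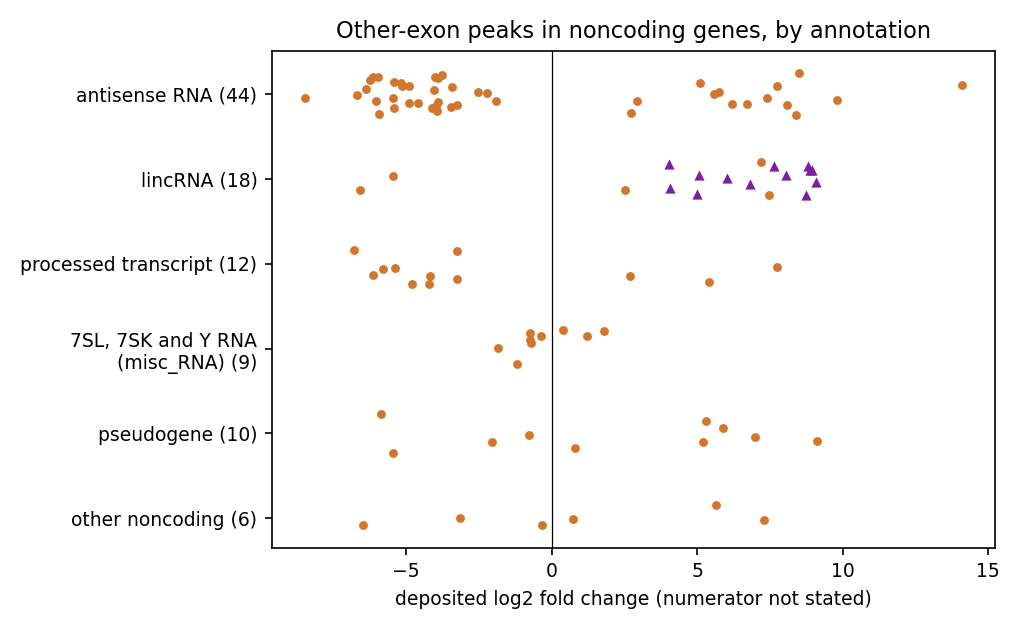
The horizontal axis gives the deposited log2 change of each of the 99 other-exon peaks in noncoding genes, 1 point per peak, in rows by gene annotation with the number of peaks in brackets; purple triangles are MALAT1, and points are spread vertically only to be seen. Peaks of 7SL, 7SK and Y RNA genes and copies of them lie near 0. MALAT1 lies to the right of 0 throughout, and antisense RNAs lie mainly to the left, with 30 of 44 negative.

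MALAT1 (ENSG00000251562), a long RNA retained in nuclear speckles, had more other-exon peaks than any other gene. The peaks covered 3344 of the 8779 bases of its RefSeq gene (38.1%) on chr11:65497738-65506516, plus strand. By the authors' deposited table the 5 peaks nearest the 5′ end, from chr11:65499471-65500730 to chr11:65501929-65502229, had changes of 4.04 to 6.01. The 8 peaks farther on, from chr11:65502709-65502978 to chr11:65505587-65505796, had changes of 6.81 to 9.08. The boundary between these sets lies at a step in the values, from 4.08 to 8.95. That their ranges did not overlap follows from this choice. The fold did not follow the order along the gene: it was 252 at chr11:65502720-65502990 and 6.88 at chr11:65503458-65503638. Many of these peaks overlapped, and merging those that share a base left 8 regions from the 13 peaks. Only 1 of the 13 peaks had a listed motif site. The input level of MALAT1 was 136, 88.7 and 133 FPKM in shNC against 174, 182 and 145 in the libraries labelled shNAT10. All 3 of the latter lay above all 3 of shNC, and the log2 difference of 0.50 (SE 0.98) did not pass (limma adjusted p = 0.86).

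**Figure D3:**
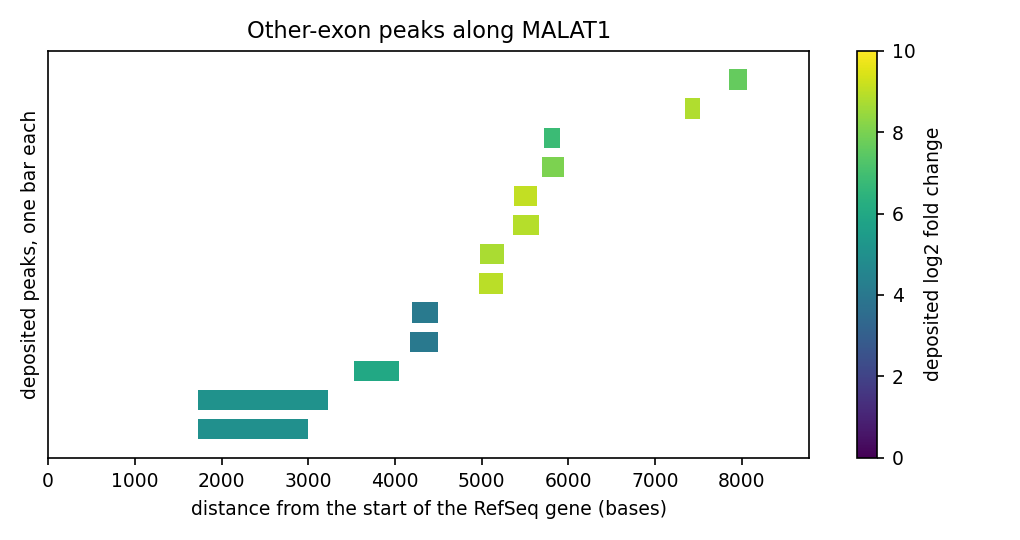
Each bar is 1 of the 13 deposited peaks of MALAT1, drawn to scale along the RefSeq gene from its start (horizontal axis, bases) and coloured by its deposited log2 change; bars span the whole peak, gaps between blocks included, and their height has no meaning. The 5 bars within the first 4500 bases have changes of 4.04 to 6.01 and the 8 bars beyond have changes of 6.81 to 9.08, a boundary set at a step in these values.

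H19, TUG1 and LINC00216 had 2 other-exon peaks each, of 1 sign within each gene. H19, an imprinted RNA that is also the precursor of a microRNA, had deposited changes of -5.37 (fold 3.29, 7 listed sites) at chr11:1995609-1995817 and of -4.23 (fold 1.21) at chr11:1996144-1996417. Its input level was 3.66, 21.5 and 43.5 FPKM in shNC against 104, 132 and 17.4 in the libraries labelled shNAT10, and these groups overlapped. TUG1, a long RNA of broad expression that the table counts as antisense, had deposited changes of -3.89 and -4.13 with folds of 50.3 and 29.3. Its input level of 13.1, 6.86 and 40.5 FPKM in shNC lay above 0.53, 0 and 1.11 in the libraries labelled shNAT10, but the difference of -3.49 (SE 1.86) did not pass (limma adjusted p = 0.754). LINC00216 had a pair of nearly identical peaks at chr14:58288121-58288443 with changes of 7.46 and 7.20 and a fold of 191. Of 15 listed long noncoding RNAs found in the gene table, 3 (MALAT1, H19 and TUG1) had other-exon peaks.

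Antisense RNAs lay over protein-coding genes, which bears on how their values are read. RefSeq placed a protein-coding gene over 41 of the 44 antisense peaks, on the opposite strand for 34. The sources used here did not say whether the counting used strand, so reads of an antisense RNA and of its partner cannot be told apart. The most positive change of all other-exon peaks in the deposited table, 14.1 with a fold of 143, was in AC097382.2 at chr4:7030644-7030823, within TBC1D14, a gene of membrane traffic. The most negative one of a noncoding gene, -8.48 with a fold of 943, was in AL162377.1, which was listed at 0 FPKM in 5 of the 6 inputs. GATA2-AS1, antisense at the gene of the transcription factor GATA2, had a change of 9.81 with a fold of 4.79 and was above 0 in 1 input library. Partners of negative antisense peaks included BCL2L1, an inhibitor of apoptosis (ABALON, -4.01), CDK2, a kinase of the cell cycle (AC025162.1, -6.69), and NQO1, a quinone reductase (AC092115.2, -5.95). CDK2 had its own other-exon peak of -5.76 at chr12:55966829-55967039, nearly the place of the AC025162.1 peak, chr12:55966838-55967075. SSRP1 (-6.48) and its antisense RNA AP000781.1 (-6.37) also had other-exon peaks with overlapping spans. Whether such pairs are 1 region listed on both strands was not tested. Partners of positive ones included MIF, a cytokine (MIF-AS1, 8.07), and PRC1, which bundles microtubules of the dividing spindle (PRC1-AS1, 5.09).

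Opposite signs could stand close together within an antisense gene. AC023509.2, within the transcription factor gene ATF7, had a deposited change of 6.19 (fold 130) at chr12:53515789-53515968 and of -3.90 (fold 8.21) at chr12:53516028-53516177. AP002490.1, within NUMA1, a gene of the spindle pole, had a change of -6.15 (fold 3.05) at chr11:72014649-72014857 and of 2.92 (fold 2.69) at chr11:72018249-72020374. The input level of AP002490.1 was 678, 609 and 701 FPKM in shNC against 630, 371 and 780 in the libraries labelled shNAT10, with overlapping groups.

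Small RNA genes lay inside other-exon peaks more often than inside peaks of the other classes. A RefSeq snoRNA, microRNA hairpin, transfer RNA, ribosomal RNA or other small RNA shared at least 1 base with 19 of the 365 other-exon peaks (5.21%), against 2 of 1406 coding-sequence peaks, 0 of 503 3′ UTR peaks and 0 of 88 5′ UTR peaks. The rule that defines the class admits such genes by annotation, and 12 of the 19 peaks were in noncoding genes. The other 7 lay in protein-coding genes, 5 with a snoRNA and 2 with a microRNA hairpin. The heat shock chaperone HSPA8 held all 88 bases of SNORD14C in a peak with a change of -4.62. The helicase gene EIF4A2 had 78 of the 125 bases of SNORA63B in a peak with a change of 9.81 and a fold of 76.5. SNORD24 lay in a peak of RPL7A with a change of -3.0. Of the 5 coding-gene peaks with a snoRNA, 4 were negative, where 64.7% of all other-exon peaks of coding genes were.

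Host genes whose own RNA is noncoding showed both signs. In the authors' deposited table GAS5, which carries SNORD76 within its peak, had a change of -5.78 with a fold of 7.21, and SNHG8, whose peak shares 26 bases with SNORA24, one of -6.59 with a fold of 4.19. SNHG16 had a positive change of 2.68. The free-standing entry SNORA3B had -3.14. Input levels of these hosts varied widely between replicates: SNHG8 had 0.64, 4.62 and 93.9 FPKM in shNC against 3.12, 34.0 and 205 in the libraries labelled shNAT10. For GAS5 the levels were 0.33, 9.31 and 19.5 FPKM in shNC against 3.17, 3.12 and 0.92 in the libraries labelled shNAT10. Both genes had overlapping groups.

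MicroRNA hairpins were found in peaks at 2 genes. MIR6733, whose hairpin of 61 bases lay wholly within the peak of the ribosome assembly gene EBNA1BP2 (deposited change -3.60), gives the following mature RNAs in RefSeq, shown with the seed in capitals because the peak contains them whole.
hsa-miR-6733-5p: uGGGAAAGacaaacucagaguu
hsa-miR-6733-3p: uCAGUGUCuggauuuccuag
Their seeds differ. MIR3652 lay at the 5′ end of HSP90B1, a chaperone of the endoplasmic reticulum, and the table listed separate peaks for the microRNA gene (7.29, fold 14.9) and for the host (1.64, fold 1.98) that overlapped and had 3 listed motif sites each. The mature miR-3652, at chr12:103930425-103930442, lay before the start of both peaks, at 103930451 and 103930466, so neither contained it. MIR3652 was listed at 0 FPKM in all 6 inputs.

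The RNAs of the signal recognition particle and related small cytoplasmic and nuclear RNAs had the strongest deposited significance and small changes. Of the 11 other-exon peaks at the lowest deposited log10 FDR of -434, 5 were in genes of this group, RN7SL1, RN7SL2, RN7SL3, RN7SL4P and 7SK, 1 was in AL139099.5, which lies over RN7SL1, and 2 were in MALAT1. The 7SL RNA is the scaffold of the particle that takes secretory proteins to the endoplasmic reticulum, and 7SK RNA holds back the elongation factor P-TEFb. Deposited changes were -0.38 for RN7SL1, 1.21 for RN7SL2, -1.21 for RN7SL3, -0.75 for RN7SL4P and 0.37 for 7SK, with folds of 1.52 to 4.34. RN7SL1, RN7SL2 and RN7SL3 are near-identical copies, among which reads can be split, so the differing signs are uncertain. RN7SL4P is named as a pseudogene copy of 7SL, so its reads can be shared in the same way. RNY1, a Y RNA bound by the Ro protein, had a change of -1.84. RN7SL1 and 7SK were listed at 0 FPKM in all 6 inputs although their peaks were listed with the lowest FDR.

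Genes with a pseudogene biotype held 10 peaks, which are uncertain for the same reason of shared reads with their parent genes. Copies annotated as misc_RNA, RN7SL4P, RN7SL674P, RN7SKP255 and RN7SKP71, are not among them. RPL7P14, a copy of a ribosomal protein gene, had the highest deposited fold of the noncoding set, 1170, with a change of 9.12, and was listed at 0 FPKM in all inputs. AGAP11 and BMS1P3 shared an overlapping peak of fold 675 on chromosome 10, with changes of 5.40 and 5.20. RPS3AP26 had a change of 5.89 and RPL23AP82 of -5.87.

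Among genes with several other-exon peaks, 1 sign and both signs were equally common. Of the 34 genes with over 1 other-exon peak, coding and noncoding, 17 had peaks of 1 sign and 17 had both. Coding genes were not counted apart. No expected share was worked out beside this count, where 61.9% of all other-exon peaks were negative. The genes named next are protein-coding ones with at least 3 such peaks. In the authors' deposited table the huntingtin gene HTT alternated in sign, with changes of 5.13, -4.89, 6.34 and -3.43 from chr4:3187656-3187836 to chr4:3235618-3238569. These peaks lay between 66.8% and 95.9% of the gene's length from its 5′ end. Their deposited FDRs were 0.0138, 7.94e-15, 0.0105 and 0.0302 in that order. EIF4G2, a translation initiation factor that acts without the cap-binding protein, had changes of 8.46, -4.98 and 9.62. The RNA helicase gene DDX17 had 7.93, -2.64 and -0.69, the last with 5 listed motif sites at chr22:38505988-38506287 near its 5′ end. ANKLE2, a gene of nuclear envelope assembly, had -4.91, 7.26 and 7.65, and the phosphatase gene PPP5C had 5.75, -1.29 and -6.61. The input level of DDX17 was 18.2, 41.8 and 43.1 FPKM in shNC against 34.1, 34.1 and 6.01 in the libraries labelled shNAT10, and that of EIF4G2 was 41.2, 91.8 and 64.9 against 73.4, 6.94 and 8.39. Groups overlapped for both.

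The 5 protein-coding genes with the highest folds all had positive changes. NASP, a chaperone of histone H1 and H3, had a deposited fold of 1740 and a change of 10.2 at chr1:45617506-45618155. KITLG, the ligand of the receptor KIT, had folds of 1270 and 150 with changes of 9.18 and 8.15. NGLY1, which removes N-glycans from misfolded proteins, had a fold of 652 (8.34), WDR70 one of 300 (9.24) and the blood group glycosyltransferase gene ABO one of 260 (9.02). These genes had low or uneven inputs: NASP had 0.21, 10.7 and 7.03 FPKM in shNC against 0.43, 0.08 and 24.9 in the libraries labelled shNAT10, while NGLY1 was above 0 in 1 library. Over all 266 coding-gene peaks the fold was lower at a higher mean input level of the gene (Spearman's rho -0.38, a description across peaks of shared libraries).

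The 5 largest positive changes of protein-coding genes were those of TMSB4X, ABCB9, NASP, EIF4A2 (9.81) and EIF4G2 (9.62), the last a pair of translation factors. TMSB4X, the actin-binding peptide thymosin beta 4, had a deposited change of 11.2 with a fold of 163 at chrX:12976244-12976838. ABCB9, a lysosomal peptide transporter, had 11 with a fold of 21.4. The input of TMSB4X was 67.8, 76.1 and 12.5 FPKM in shNC, above 2.53, 5.09 and 3.92 in the libraries labelled shNAT10. Its log2 difference of -3.13 (SE 1.69) did not pass (limma adjusted p = 0.754).

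The most negative changes were mainly in genes of protein turnover and folding and of RNA decay. UBE2L3, a ubiquitin-conjugating enzyme, had a deposited change of -8.90 with a fold of 15.9 at chr22:21567733-21567913 and a further peak of -4.81. PAXIP1, a scaffold of histone methylation and DNA repair, had -8.81 with a fold of 212. PSMA7, a subunit of the proteasome core, had -7.70 with a fold of 2.67, the chaperone subunit PFDN5 -7.67 with 140, and the exosome subunit EXOSC1 -7.64 with 17.1. Input levels of PSMA7 were 96.4, 26.1 and 28.0 FPKM in shNC against 45.2, 58.7 and 305 in the libraries labelled shNAT10, with overlapping groups.

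Cytosolic ribosomal protein genes, which include many snoRNA hosts, had negative peaks in 11 of 13 cases. Of the 76 in the list, 17 had a peak of some class and 10 had other-exon peaks, 13 in all, with 2 positive and a median change of -3.0. For comparison, 61.9% of all other-exon peaks were negative. Examples from the authors' deposited table were RPL27 (-4.97, fold 7.12), RPL34 (-3.62, fold 25.1) and RPL18 (-1.37, fold 3.66). RPS4X and RPL7A each had a peak of either sign, with 6.77 and -2.96 in RPS4X. The fold of these 13 peaks was at most 25.1. Input levels of RPL27 were 399, 536 and 294 FPKM in shNC against 432, 914 and 635 in the libraries labelled shNAT10. Of the 74 ribosomal protein genes tested, 0 passed limma's test in the inputs, 2 had an unadjusted p under 0.05, and the median log2 difference was 0.16.

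Counts for the other lists follow, each beside the number of its genes with a peak of some class. Over the whole table, 314 of the 1931 genes with a peak had an other-exon peak. Translation factors had 5 other-exon peaks in 3 of 9 such genes (37 listed), 4 of them positive, with EIF3B at 6.42 (fold 239). For SR and related splicing factors the count was 2 of 9 (24 listed), SRSF10 at -3.93 and SRSF11 at 6.78. Among hnRNP genes it was 2 of 9 (25 listed), HNRNPD at -2.26 (fold 142) and PCBP2 at -6.30. DNA replication and histone chaperone genes had 2 of 13 (28 listed), NASP and SSRP1, the latter a part of the histone chaperone FACT at -6.48. Heat shock chaperones had 2 of 11 (24 listed), HSPA8 and HSP90B1. No other-exon peak fell in 32 mitotic genes, 13 of which had peaks of another class, nor in 26 epithelial adhesion and keratin genes, 7 of which had one. None fell in 14 nonsense-mediated decay factors, 16 ferroptosis genes or the 8 genes of the ac4C machinery (NAT10, THUMPD1, SNORD13, TRMT112, NOP56, NOP58, FBL and DKC1), the last 2 groups having no peak of any class in this table.

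A few protein-coding genes carried peaks in an other exon and in another class, with like or unlike signs. There were 13 such genes, 4 with peaks of 1 sign and 9 with both. Over all 2364 peaks 61.7% were negative, and no expected share of genes with both signs was worked out. H3F3A, which encodes histone H3.3, had a deposited change of 10.6 (fold 536) in its coding sequence and of -2.14 (fold 2.07) in an other exon. POGZ, a chromatin protein, had the reverse, -8.99 (fold 746) in the coding sequence and 5.52 (fold 186) in an other exon. Cyclin T1, encoded by CCNT1, had positive changes in both, 4.34 and 8.99. RCC1 was positive in both an other exon (8.73) and the 3′ UTR (1.36).

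Blocks, length and place of the peaks were compared by kind of gene. Of the 365 peaks 62.5% were a single block, 77.8% in noncoding and 56.8% in protein-coding genes, against 32.2% of coding-sequence peaks and 86.3% of 3′ UTR peaks. The median length was 208 bases, 209 in noncoding and 181 in protein-coding genes. The latter difference was not stable, with 210 in both at an FDR of at most 0.01 and 206 against 208 with 1 peak a gene. Of the 306 peaks whose gene matched RefSeq by symbol and place, the 257 in protein-coding genes had their midpoints at a median of 80.8% of the gene's length from the 5′ end, and 31.5% lay in the final 10% of it. Over all 2364 peaks, of which 2175 matched, the median was 75.9% with 29.1% in the final 10%, close to these values. Coding-sequence peaks had a median of 68.0% with 16.3% in the final 10%, and 3′ UTR peaks 95%. For the 49 matched peaks in noncoding genes, 13 of them in MALAT1, the median was 46.1%.

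**Figure D4:**
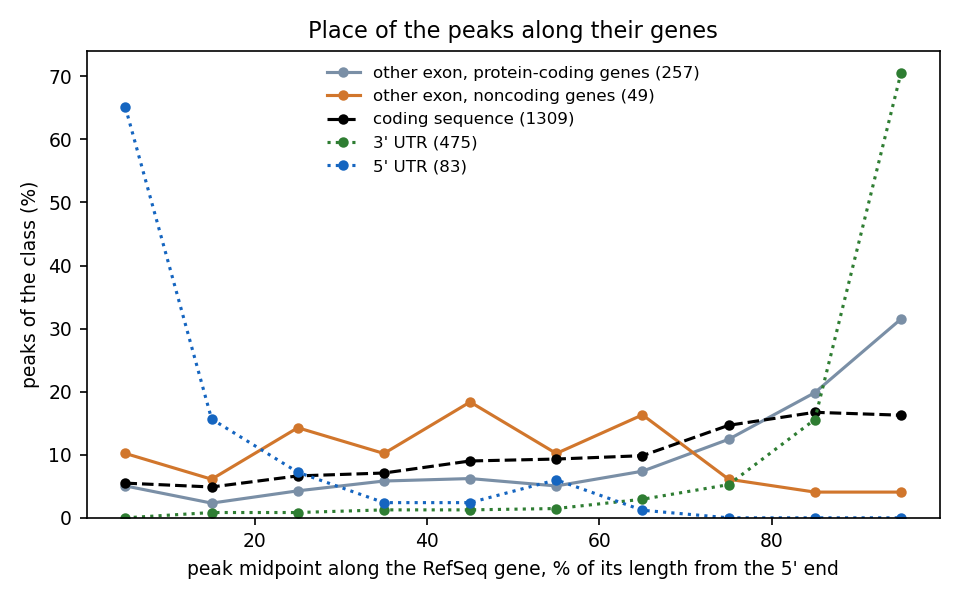
The horizontal axis gives the place of the peak midpoint as a percentage of the RefSeq gene's length from its 5′ end, in bins of 10 percentage points, and the vertical axis the percentage of the peaks of each class in that bin; the number of peaks is in brackets. Other-exon peaks of protein-coding genes rise toward the 3′ end, with 31.5% in the final 10% against 29.1% over all peaks, while those of noncoding genes do not.

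The listed motif was less common in noncoding genes. In the authors' deposited table, 61.6% of other-exon peaks had at least 1 site, 66.2% in protein-coding and 49.5% in noncoding genes, or 55.8% of the latter without MALAT1. Coding-sequence peaks had 64.6%, 3′ UTR peaks 55.1% and 5′ UTR peaks 78.4%. Per 1000 bases of peak there were 6.35 sites in protein-coding genes and 3.86 in noncoding genes, or 4.81 in the latter without MALAT1. These values count every listed site, and 38 of the 472 lay between or outside the blocks of their peak. All 38 belonged to peaks of several blocks, which were more common in protein-coding genes. Negative other-exon peaks had a site in 65.9% of cases and positive ones in 54.7%, and over all classes the shares were 67.7% and 54.4%. Peaks of 7 or 8 sites were rare, and the maximum was 8.

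Input levels tested whether the RNAs themselves differed between the hairpins. Of the 314 genes with other-exon peaks, 267 passed the filter of a mean of at least 1 FPKM and 1 passed limma's test at an adjusted p under 0.05, where 0.19% of all 10517 genes tested passed. An unadjusted p under 0.05 was found for 12, with 7 higher and 5 lower in the libraries labelled shNAT10, where all genes had 389 of 10517, with 145 higher and 244 lower. The median log2 difference of the 267 genes was -0.11, and that of all genes tested was -0.49. By kind the median was -0.21 for 65 noncoding and -0.06 for 202 protein-coding genes. For all genes this median was -0.08 under quantile normalization and -0.76 on the TPM scale, so the offset depends on scaling. Groups that did not overlap numbered 34 of 267 genes (12.7%), against 9.61% of all genes tested, with 12 of 65 noncoding genes (18.5%) and 22 of 202 protein-coding genes (10.9%).

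The gene past the test was RN7SL2 (ENSG00000274012), with input levels of 13166, 42174 and 12464 FPKM in shNC against 30020, 28116 and 88099 in the libraries labelled shNAT10. The level of shNC replicate 2 lay above those of shNAT10 replicates 1 and 2, so the groups overlapped. Its log2 difference was 1.14 (SE 0.15, n = 3 per group, limma adjusted p = 3.66e-09), with an SE drawn mostly from genes of like level. The call was lost without shNC replicate 1, 2 or 3 (differences of 0.88, 1.71 and 0.84) and without shNAT10 replicate 3 (0.61), with limma adjusted p between 0.355 and 0.779. It was also lost with a pseudocount of 0.01 (limma adjusted p = 0.119), a minimum of 5 FPKM (0.078), no filter (0.634) and robust eBayes (0.743). Its copy RN7SL3 had 241, 495 and 152 FPKM in shNC against 903, 786 and 835 in the libraries labelled shNAT10, with groups apart, but did not pass (difference 1.67, SE 0.65, limma adjusted p = 0.754). RNY1 likewise had all 3 libraries labelled shNAT10 above shNC, at 331, 408 and 170 against 31.4, 75.4 and 142 FPKM.

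Of the 38 antisense RNAs tested, 6 (15.8%) had groups apart, where 9.61% of all genes did, and none of the 6 passed; the 3 with an unadjusted limma p under 0.05 are described. SLCO4A1-AS1, antisense at the gene of an organic anion transporter, had 0, 12.7 and 144 FPKM in shNC against 449, 234 and 257 in the libraries labelled shNAT10, all above shNC (difference 4.58, SE 1.28, limma adjusted p = 0.144). SMARCA5-AS1, at the gene of a chromatin remodeller, had 218, 290 and 67.6 against 463, 481 and 672 FPKM. PRC1-AS1 had 93.5, 56.5 and 101 FPKM in shNC, above 28.4, 0 and 28.3 in the libraries labelled shNAT10. The deposited peak changes of these 3 genes were -5.41, -6.05 and 5.09. Among protein-coding genes EBNA1BP2 had 33.0, 26.2 and 67.3 FPKM in shNC against 0, 3.19 and 0 in the libraries labelled shNAT10, which did not pass (difference -4.63, SE 1.80, limma adjusted p = 0.754), and its peak change was -3.60. Fewer cells with an RNA and less of it per cell cannot be told apart in these bulk libraries.

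**Figure D5:**
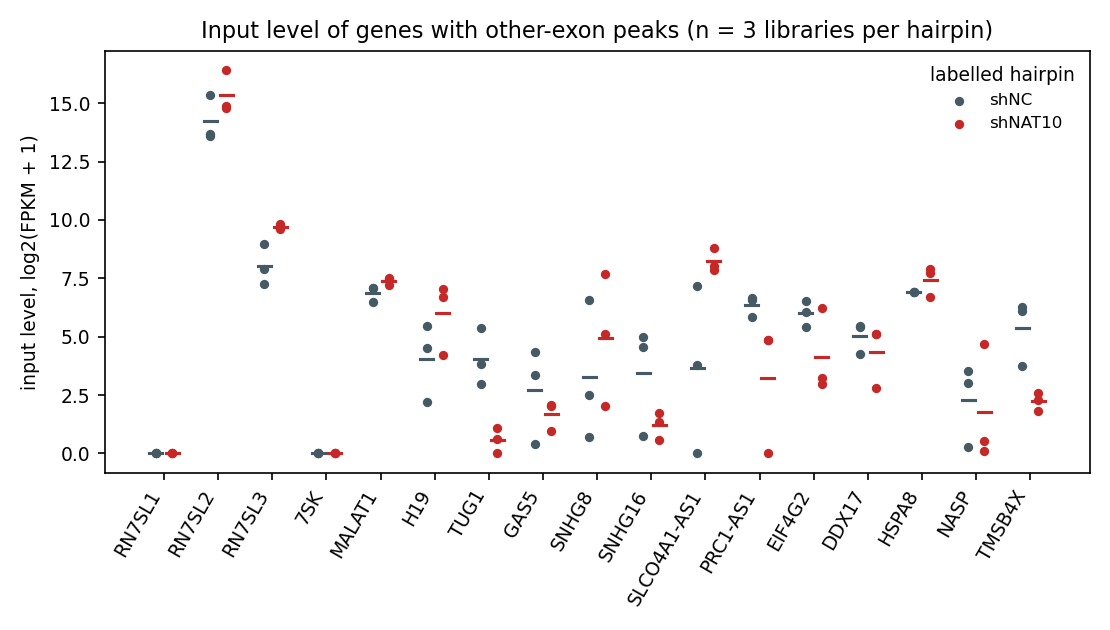
Input levels as log2(FPKM + 1) of 17 genes with other-exon peaks, 1 point per library (dark for shNC, red for libraries labelled shNAT10, 3 each) and a bar at the group mean; RN7SL1 and 7SK are listed at 0 in all 6. RN7SL3 and TUG1 have groups apart in opposite directions, while RN7SL2, the gene past the test, has overlapping groups.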

How the data were processed

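The members and gene lists were chosen with earlier results of these data known. The submitters' processing notes name cutadapt 2.5, HISAT2 2.1.0 and HOMER 4.10.4 without roles, and both GRCh38 and GRCm38. The sources used here do not give the counter, annotation release, peak caller or pooling of replicates. The authors deposited gene levels as FPKM for the 6 input libraries. Columns named NC matched shNC titles and columns named sh were taken as shNAT10 by elimination. The authors deposited for each peak a fold enrichment ratio, the p-value of the peak call, a log2 fold change of their differential test, and log10 of its FDR, treated as a score.

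Peaks were counted as deposited, and positions count from 1 on GRCh38. Gene places, small RNAs and sequences came from RefSeq GRCh38.p14. Gene levels of the hairpins were tested as log2(FPKM + 1) by limma 3.58.1 (R 4.3.3; lmFit, then eBayes with a trend) where the mean reached 1 FPKM, with Benjamini-Hochberg adjustment over all 10517 genes. The fit was tested on simulated data. The denominators of FPKM were estimated from steps in low values of small RNAs, of which 20 to 34 per library (of 35 to 55) came out whole within 0.02 fragments. Same-numbered libraries did not deviate together (correlations 0.00, -0.02 and 0.01), and the replicate block served as an alternative. Others varied the pseudocount, filter, scaling, moderation and libraries of the fit and, for peaks, the FDR, minimum change, merging and genes.

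Named genes were those with at least 3 other-exon peaks, the 10 noncoding genes with most peaks or, for ties, the largest changes, the 5 coding genes of largest fold and of largest change in each sign, up to 4 per list, those past limma's test and the ac4C machinery. Genes with small RNAs inside peaks, other antisense and pseudogenes, genes with peaks in several classes and those with separate input groups were chosen after their values were seen. A few genes that these rules name are not reported here.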

Additional observations from a re-analysis of the deposited data

How the results depend on the processing

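Under a stricter FDR, merged overlapping peaks and a larger minimum change, the numbers of other-exon peaks stayed within 1.5 times. Their signs, lengths and motif shares stayed within 95% binomial intervals of the full set. Signs, lengths and motif shares did so also with 1 peak a gene and without MALAT1. The negative share in noncoding genes also did so without genes that have near-identical copies, an alternative chosen after seeing the data. These sets kept most of the same peaks, and the intervals take peaks as independent, which they are not. Staying within such bands was therefore nearly fixed in advance and is no evidence of stability. The input results were less stable, and the cause was not tested. No gene with other-exon peaks passed (0) with a pseudocount of 0.01, a minimum of 5 FPKM, no filter, or shNAT10 replicates 2 and 3 left out, and leaving out 1 replicate gave 0 to 2. With robust eBayes 1 passed, SLCO4A1-AS1 in place of RN7SL2. Over all genes 20 passed, against 0 with no filter or both replicates left out, 7 with the pseudocount of 0.01, 10 with the higher minimum and 1 to 34 with a replicate left out. The median log2 difference was -0.38 with a pseudocount of 0.01, 0.13 under quantile normalization, -0.41 on the TPM scale and -0.43 with shNAT10 replicates 2 and 3 left out. The NAT10 difference was -0.23 (limma adjusted p = 0.989) with that pseudocount and -1.81 (0.671) with those replicates left out. That last fit keeps 1 library labelled shNAT10, the one listed at 0 for NAT10, so its sign was fixed by the choice, and only shNC gives the spread. With the replicate block 1 gene passed and the median was -0.11, and the block changed no call among these genes. Depth limits low genes: 14 of the 314 genes were listed at 0 in all inputs.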

Other observations

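Other-exon peaks that shared bases on the same strand always had the same sign, also where the genes differed. Within a strand, the 365 peaks held 13 groups of overlapping peaks with 26 members. All 13 groups were of 1 sign, 7 of them within 1 gene. PCBP2 and AC023509.1 had deposited changes of -6.30 and -6.15 at nearly the same place. MRPS6, a mitochondrial ribosomal protein, and AP000317.2 had -5.27 and -6.80, and ETV5, a transcription factor, and its neighbour DGKG, a diacylglycerol kinase, had -3.25 and -5.08. Such pairs may be 1 region listed under several genes, and merging within a strand left 352 regions. Overlaps between strands, such as that of CDK2 and AC025162.1, were not counted.

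The size of the deposited change differed with the input level of the gene. The median absolute log2 change was 5.58 for the 47 peaks of genes under 1 FPKM on average, 5.13 for 115 peaks between 1 and 10, 4.53 for 138 peaks between 10 and 100 and 4.01 for 65 peaks above that. The negative share had no such order, with 27 of 47, 69 of 115, 93 of 138 and 37 of 65 peaks negative. All-class medians had the same order, from 5.32 to 3.54. These are descriptions across peaks of shared libraries, and no test was made.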
